A study of Mus musculus with 6 samples.

Results

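Fibroblast genes other than collagens were followed in mouse hearts that overexpress the miR302-367 cluster, a run of small RNAs made from a common transcript. The 34 genes were listed by name as genes used to recognise cardiac fibroblasts, and each was read from the brightest array probe that the platform annotation gives to that gene alone. All 34 had such a probe, out of 22180 genes measured in the same way. The control group was 3 hearts labelled Nkx2.5-Cre, which carry a Cre recombinase expressed from the Nkx2.5 locus or its promoter in cardiac progenitors. The other group, called transgenic here, was 3 hearts labelled Nkx2.5-Cre; R26R-miR302-367, which carry the same Cre together with the cluster placed at the Rosa26 locus. All mice were of a mixed C57BL/6 x 129S6 background. The source name and the harvest protocol put the hearts at postnatal day 14, whereas the age field reads E14, and this conflict of labels could not be settled here. By the Xist probe, 1 control and 2 transgenic hearts were female, and the labels do not say whether each array holds a separate animal, so p-values measure the spread between these arrays, which may be technical in part.

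Cardiac fibroblasts fill the space between heart muscle cells and make most of its collagen-rich matrix. They arise mainly from the epicardium, carry the receptor Pdgfra and the transcription factor Tcf21 in the uninjured heart, and after injury pass into an activated state in which the matrix protein periostin (Postn) is a widely used marker. After birth these cells still lay down and remodel matrix while the heart grows, so markers of the activated state can be present without injury. A bulk array of a whole heart cannot tell fewer fibroblasts from less RNA per fibroblast, and this holds for every value given here.

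The mature 3p microRNAs of the cluster are shown because they are what differs by design between the groups. Sequences are from RefSeq (GRCm38.p6), 5′ to 3′, with the seed (bases 2 to 8) in capitals. Those of miR-302b-3p and miR-302d-3p have the same seed, and miR-302a-3p belongs to the same cluster.
mmu-miR-302b-3p: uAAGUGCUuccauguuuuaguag
mmu-miR-302c-3p: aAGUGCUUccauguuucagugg
mmu-miR-302d-3p: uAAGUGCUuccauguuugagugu
mmu-miR-367-3p: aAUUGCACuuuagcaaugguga
The probes of the microRNA genes checked the labels. For Mir302c the mean log2 value was 3.37 ± 0.34 (SD, n = 3) in the controls and 9.98 ± 0.017 (SD, n = 3) with the transgene. For Mir367 it was 2.81 ± 0.13 (SD, n = 3) and 7.32 ± 0.078 (SD, n = 3). The 12 cardiomyocyte markers, taken to check the tissue, had a summed signal of 16.22 to 16.24 in control and 16.17 to 16.19 in transgenic hearts on the log2 scale, close but without overlap. By limma 0 of them passed the adjusted threshold between groups, and 2 had an unadjusted p under 0.05, as 25.4% of all genes did. The values of 6 of the 12 did not overlap, 5 lower and 1 higher, where 16.7% of all genes are lower and 14.2% higher without overlap.

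The main comparison asked which fibroblast genes differ between transgenic and control hearts. Of the 34 genes, 8 fell and 1 rose at an adjusted p of 0.05 (limma, Benjamini-Hochberg over all 22180 genes), and 25 missed that threshold. The 9 called genes are 26.5% of the list, beside 11.1% of all genes tested. The fallers are 23.5% of the list beside 5.76% of all genes, and the single riser stands beside 5.35%. The median difference, transgenic minus control, was -0.22 on the log2 scale over the list and -0.03 over all genes. These are descriptions of a list whose members were chosen with earlier results of these data known. For 18 of the 34 genes all values of 1 group lay beyond those of the other, 15 lower and 3 higher in transgenic hearts, where 30.9% of all genes do not overlap. The largest falls were those of Pi16, Ogn and Pcolce2, the only fallers of more than 1.5-fold, and the only called rise was that of Postn. The receptor Pdgfra and the factor Tcf21, by which resident fibroblasts are usually recognised, missed the threshold.

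**Figure D1:**
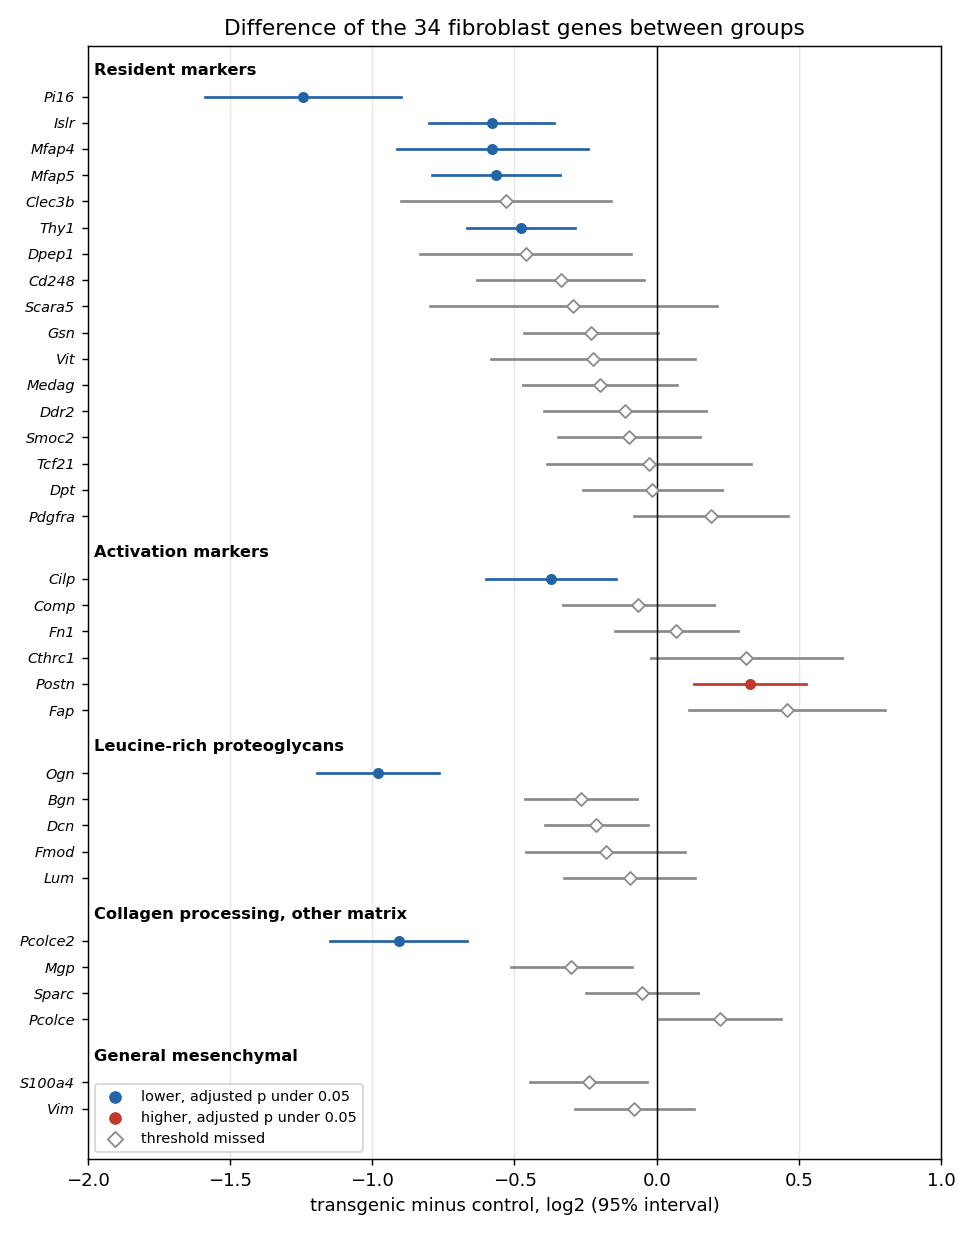
Difference of each of the 34 genes between transgenic and control hearts on the log2 scale, as points with 95% intervals from the limma fit, grouped by role; filled points passed an adjusted p of 0.05 and open diamonds did not. Filled points to the left of 0 are the 8 fallers, led by Pi16 at -1.24, and Postn at 0.33 is the only filled point to the right.

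Among the 17 resident markers, 5 fell and 0 rose, beside 5.76% of all genes that fell and 5.35% that rose. Differences were negative for 16 of them, as for 12567 of all 22180 genes, and the median difference was -0.29. The values did not overlap for 8 of them, all lower in transgenic hearts, where 16.7% of all genes are lower without overlap. Pi16, a secreted peptidase inhibitor that marks fibroblasts of the adventitia around vessels, had log2 values of 8.22, 8.59 and 8.05 in control hearts and 6.96, 6.91 and 7.27 in transgenic hearts. Every transgenic heart lay below every control heart by more than the spread within either group. Pi16 fell by 1.24 (SE 0.15), which is 2.37-fold lower (adjusted p = 0.00178).

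Islr, a secreted immunoglobulin and leucine-rich repeat protein of mesenchymal cells, had values of 9.23, 9.43 and 9.31 in control and 8.66, 8.70 and 8.86 in transgenic hearts. The groups were apart, and Islr fell by 0.58 (SE 0.097, adjusted p = 0.00676). Mfap5, a microfibril protein that binds fibrillin, had 9.56, 9.64 and 9.60 in control and 9.18, 8.88 and 9.04 in transgenic hearts. Again no transgenic value reached a control value, and Mfap5 fell by 0.57 (SE 0.099, adjusted p = 0.0085). Thy1, the surface glycoprotein CD90, which fibroblasts share with other cells such as T cells and neurons, had 7.498, 7.53 and 7.40 in control and 6.99, 6.97 and 7.04 in transgenic hearts. These values were tight within each group, and Thy1 fell by 0.48 (SE 0.083, adjusted p = 0.0085).

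Mfap4, a microfibril-associated protein of elastic fibres, had 8.82, 8.75 and 8.81 in control and 7.99, 8.08 and 8.58 in transgenic hearts. Transgenic 3 lay close to the controls and the other two transgenic hearts well below them. Mfap4 had a difference of -0.58 (SE 0.15, adjusted p = 0.0388). Mfap4 missed the threshold when control 1 (adjusted p = 0.106), control 2 (0.0711) or control 3 (0.0775) was dropped, and likewise transgenic 1 (0.131) or transgenic 2 (0.135). A sex term, chosen after seeing the data, gave 0.0621.

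The best known markers of resident fibroblasts stood differently. Pdgfra, the receptor for platelet-derived growth factor A, had values of 7.64, 8.01 and 7.61 in control and 7.996, 7.88 and 7.96 in transgenic hearts. Control 2 was as high as the transgenic hearts, so the groups overlapped, and the difference was 0.19 (95% interval -0.08 to 0.46, adjusted p = 0.371). Tcf21, the transcription factor needed to form cardiac fibroblasts from the epicardium, had 7.84, 7.96 and 7.32 in control and 7.80, 7.64 and 7.61 in transgenic hearts. All transgenic values lay inside the control range, with a difference of -0.03 (95% interval -0.39 to 0.33, adjusted p = 0.941). Ddr2, a receptor for fibrillar collagen, had a difference of -0.11 (95% interval -0.40 to 0.17). Dpt, the matrix protein dermatopontin, had 11.53, 11.72 and 11.42 in control and 11.60, 11.41 and 11.61 in transgenic hearts. Its groups overlapped, and its difference of -0.01 had an interval from -0.26 to 0.23. The intervals of Pdgfra, Tcf21, Ddr2 and Dpt all lie above the fall measured for Pi16, and a difference between genes was not tested.

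The other resident markers all had negative differences, from -0.53 to -0.10, and missed the threshold. Clec3b, the plasminogen-binding protein tetranectin, had values of 6.64, 7.15 and 6.72 in control and 6.09, 6.25 and 6.57 in transgenic hearts. The groups did not overlap, yet control 2 and transgenic 3 stood above the rest of their groups, and the difference of -0.53 missed the threshold (adjusted p = 0.0731). It passed with renewed quantile normalization (adjusted p = 0.04), with an intensity trend and robust variance (0.0486) and with the sex term (0.0456). Dpep1, a membrane dipeptidase, had -0.46 (adjusted p = 0.114) and Cd248, the surface protein endosialin, -0.34 (adjusted p = 0.139). Gsn, the actin-severing protein gelsolin, had -0.23 without overlap (adjusted p = 0.204). Scara5, a ferritin scavenger receptor, had -0.29, Vit, the matrix protein vitrin, -0.22, Medag, a gene tied to fat cell formation, -0.20, and Smoc2, a calcium-binding matricellular protein, -0.10, with adjusted p-values from 0.352 to 0.649. In Scara5, control 2 at 6.80 stood far above the other controls at 5.87 and 6.00.

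**Figure D2:**
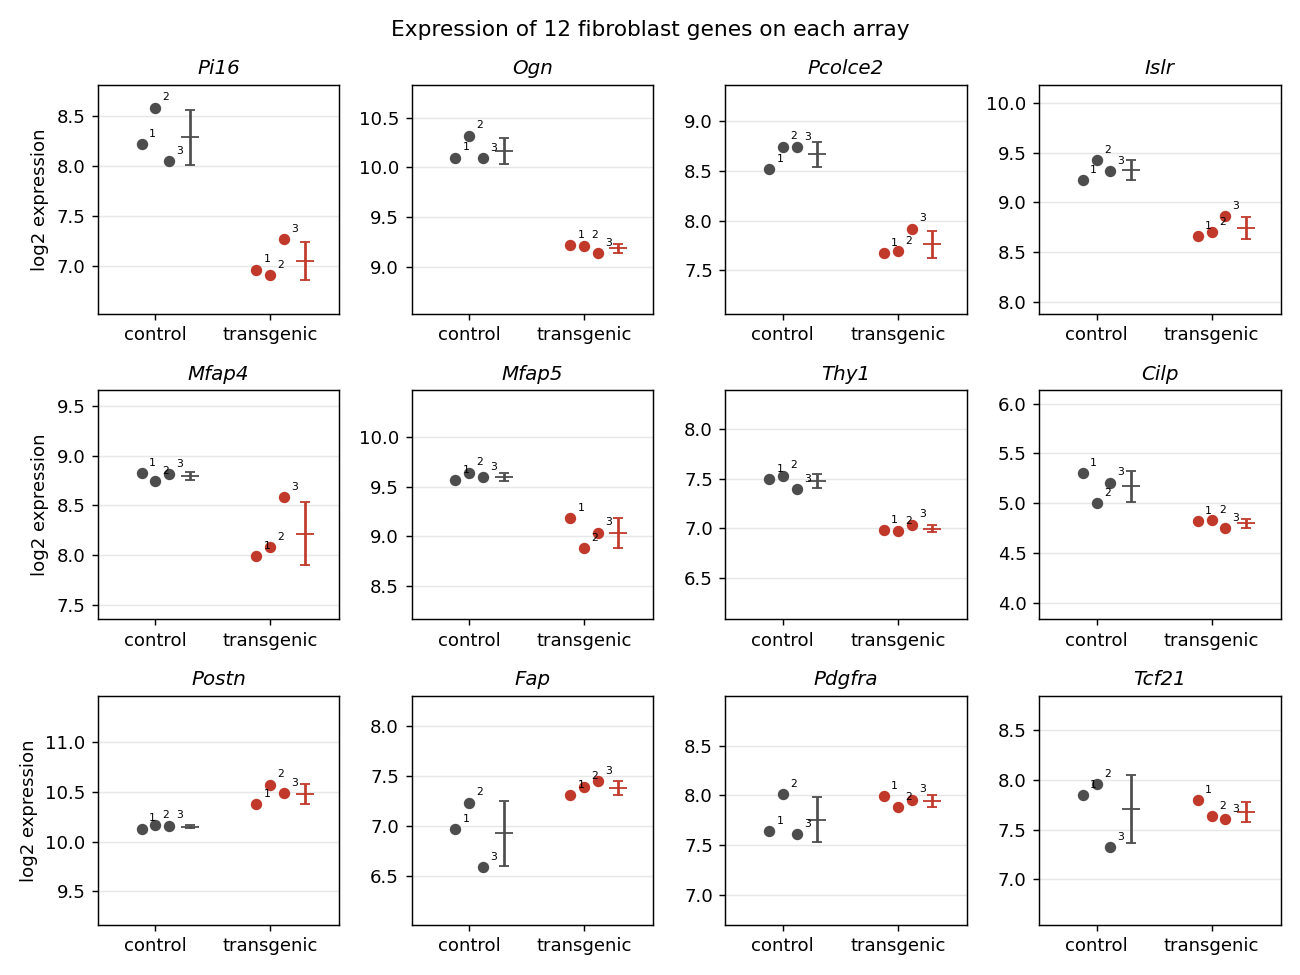
Log2 expression of 12 of the genes on each of the 6 arrays, with replicate numbers beside the points and the mean ± SD of each group (n = 3) to the right; all panels span the same log2 range. Pi16, Ogn and Pcolce2 are well apart between groups, Postn and Fap are higher in transgenic hearts, and Pdgfra and Tcf21 overlap.

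The activation markers were mixed. Of 6, 1 rose, 1 fell and 4 missed the threshold, beside 5.35% of all genes that rose and 5.76% that fell. Their median difference was 0.19, and that of all genes was -0.03. Postn, a matricellular protein that binds collagen and integrins, had values of 10.13, 10.16 and 10.16 in control and 10.38, 10.57 and 10.48 in transgenic hearts. The control hearts were nearly equal and every transgenic heart was higher. Postn rose by 0.33 (SE 0.087), which is 1.254-fold (adjusted p = 0.045). Postn missed the threshold whichever array was dropped. The adjusted p was then 0.124, 0.0878 and 0.0695 for controls 1, 2 and 3 and 0.0682, 0.159 and 0.117 for transgenic hearts 1, 2 and 3, while the difference stayed between 0.28 and 0.38. It was also lost with renewed quantile normalization (0.0616), with arrays centred on their medians (0.0785) and with the sex term (0.0671).

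Fap, a surface protease of activated fibroblasts, had values of 6.97, 7.23 and 6.58 in control and 7.31, 7.40 and 7.45 in transgenic hearts. The groups did not overlap, but the controls spread widely, and the difference of 0.46 missed the threshold (SE 0.15, adjusted p = 0.0929). It passed without control 2 (difference 0.61, adjusted p = 0.029). Cthrc1, a secreted protein of collagen-producing fibroblasts after injury, had 6.63, 6.89 and 6.78 in control and 6.82, 7.03 and 7.40 in transgenic hearts, which overlap (difference 0.31, adjusted p = 0.225). Fn1, the matrix protein fibronectin, had a difference of 0.07 (95% interval -0.15 to 0.29).

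Cilp and Comp, cartilage matrix proteins that late-stage fibroblasts of a scar also make, gave no rise. Cilp had values of 5.30, 4.997 and 5.21 in control and 4.82, 4.83 and 4.75 in transgenic hearts. These are dim, and every transgenic value was below the controls. Cilp fell by 0.37 (SE 0.10, adjusted p = 0.0471), but missed the threshold when control 1 (0.145), control 3 (0.0903) or any transgenic heart (0.121, 0.118 and 0.136 for 1, 2 and 3) was dropped, with an intensity trend and robust variance (0.0629) and with the sex term (0.0933). Comp had a difference of -0.06 (adjusted p = 0.792) with overlapping groups.

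Set side by side, the median difference of the resident markers minus that of the activation markers was -0.49. Leaving out the dimmest genes, which drops Vit and Cilp, gave -0.63. By array, the median of the resident markers against the control mean was -0.03, 0.16 and -0.11 in control and -0.38, -0.35 and -0.18 in transgenic hearts. The median of the activation markers was 0.01, 0.07 and 0.02 in control and -0.02, 0.21 and 0.24 in transgenic hearts. The resident medians of the groups did not overlap, whereas transgenic 1 lay with the controls for the activation markers. Control 2 held the highest control value of 13 of the 17 resident markers, and transgenic 3 the highest transgenic value of 11. Control 2 was the female control, and transgenic 1 and 3 were the female transgenic hearts. With the sex term the resident minus activation value was -0.49 and the list held 7 fallers and 0 risers. No test of this difference between lists was made. It rests on only 6 activation markers. The 20 other activation genes taken up below had a median difference of -0.16, with 13 negative and 7 positive. Their median thus had the sign of the resident markers' median and not that of the activation markers.

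**Figure D3:**
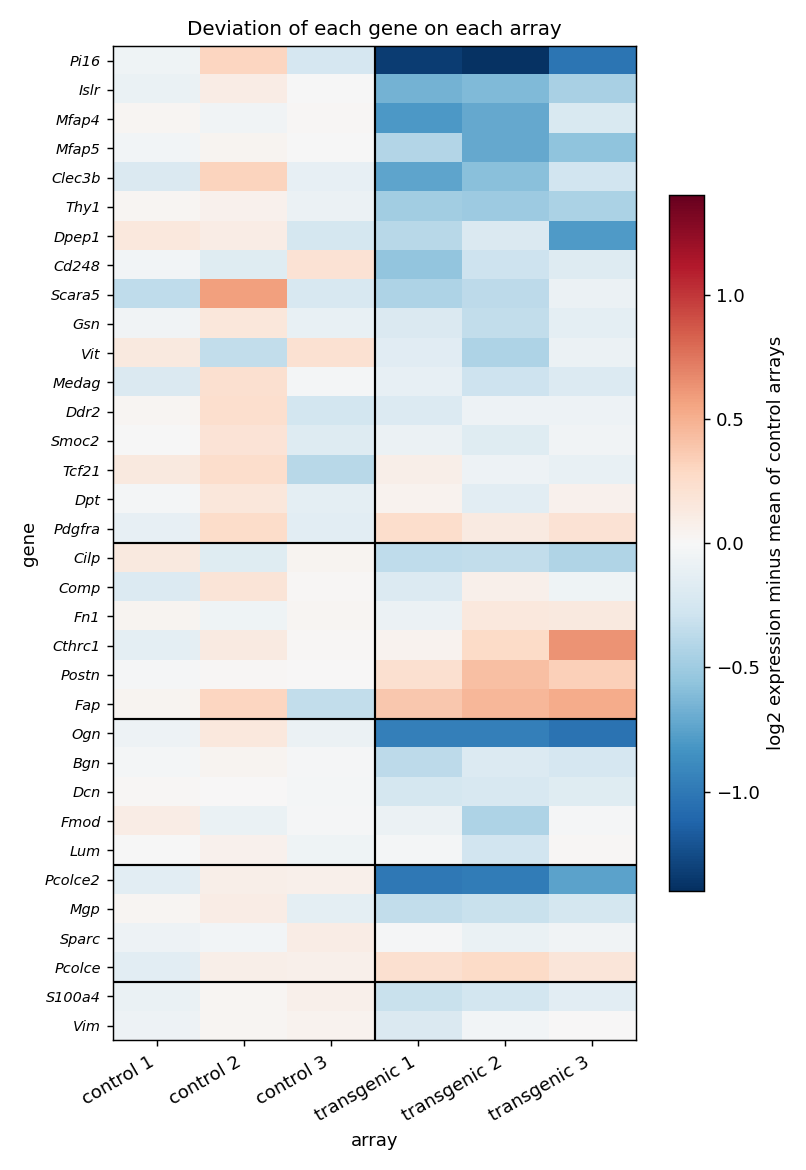
Log2 expression of the 34 genes on each array minus the mean of the 3 control arrays, as colour from -1.4 (blue) to 1.4 (red), with lines between the groups of genes and of hearts. Blue rows for Pi16, Ogn and Pcolce2 run through all transgenic hearts, and Cthrc1, Postn and Fap lie above the control mean in the same hearts. Fap is also red in control 2, at 7.23 against a control mean of 6.93.

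The small leucine-rich proteoglycans bind collagen fibrils and set their width and spacing. Of 5, 1 fell and 0 rose, beside 5.76% of all genes that fell and 5.35% that rose. All 5 had negative differences, as had 12567 of all 22180 genes. Ogn, the proteoglycan osteoglycin or mimecan, had values of 10.10, 10.32 and 10.09 in control and 9.21, 9.21 and 9.14 in transgenic hearts. The groups lay far apart, with little spread among the transgenic hearts. Ogn fell by 0.98 (SE 0.094), which is 1.97-fold lower and had the smallest adjusted p of the 34 genes (0.00059). Dcn, decorin, had 12.22, 12.21 and 12.17 in control and 11.96, 11.97 and 12.03 in transgenic hearts. Every transgenic value was lower, by a small amount, and the difference of -0.21 missed the threshold (95% interval -0.39 to -0.03, adjusted p = 0.131), while it passed with an intensity trend and robust variance (adjusted p = 0.00979). Bgn, biglycan, a close relative of decorin, had -0.27 (adjusted p = 0.0897) without overlap, and passed in the same alternative (0.0141). Its dimmer probe gave -0.15. Lum, lumican, had -0.10 and Fmod, fibromodulin, -0.18, with overlapping groups. Dcn and Lum are next to each other on chromosome 10, the only neighbouring pair in the list.

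Among the other matrix genes, the paralogs Pcolce and Pcolce2 had differences of opposite sign. Both proteins enhance the removal of the carboxyl propeptide from fibrillar procollagen. Pcolce2 had values of 8.52, 8.74 and 8.74 in control and 7.67, 7.69 and 7.92 in transgenic hearts. No values came near to overlapping, and Pcolce2 fell by 0.91 (SE 0.11), which is 1.87-fold lower (adjusted p = 0.00149). Pcolce had 7.80, 8.03 and 8.01 in control and 8.17, 8.22 and 8.11 in transgenic hearts, higher in all of them, with a difference of 0.22 that missed the threshold (95% interval 0.01 to 0.44, adjusted p = 0.182). Mgp, matrix Gla protein, an inhibitor of calcification, had 11.11, 11.18 and 10.94 in control and 10.73, 10.76 and 10.83 in transgenic hearts. Its groups did not overlap and its difference was -0.30 (adjusted p = 0.0766). It passed without control 3 (adjusted p = 0.0386), with the dimmest genes left out (0.047), with array weights (0.0341) and with an intensity trend and robust variance (0.0141). Sparc, a collagen-binding matricellular protein, had -0.05 (95% interval -0.25 to 0.14).

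Vim and S100a4 mark mesenchymal cells in general. Vim, the intermediate filament vimentin, had values of 12.02, 12.12 and 12.14 in control and 11.89, 12.05 and 12.10 in transgenic hearts, which overlap, with a difference of -0.08 (95% interval -0.29 to 0.13). Its dimmer probe gave 0.05, with 1 transgenic heart at 8.14 and the others at 7.02 and 7.34. S100a4, a calcium-binding protein once called fibroblast-specific protein, had a difference of -0.24 without overlap (adjusted p = 0.136).

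The stretches before the RefSeq starts of the 3 largest fallers and of Postn are shown for reference, because these genes moved most firmly or in the other direction. Each is the 250 bases upstream of the annotated start in GRCm38.p6, with matches in capitals. Both strands were searched for 3 motifs, of which the first was the core bound by TEAD factors, GGAATG. The AP-1 letters were TGANTCA. The TATA box letters were TATAAA.
Pi16, chr17:29318632-29318881, + strand: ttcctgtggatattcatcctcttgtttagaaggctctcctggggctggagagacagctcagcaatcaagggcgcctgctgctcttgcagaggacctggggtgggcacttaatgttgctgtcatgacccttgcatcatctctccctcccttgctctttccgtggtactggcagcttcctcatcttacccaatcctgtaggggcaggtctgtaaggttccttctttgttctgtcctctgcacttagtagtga
Ogn, chr13:49607765-49608014, + strand: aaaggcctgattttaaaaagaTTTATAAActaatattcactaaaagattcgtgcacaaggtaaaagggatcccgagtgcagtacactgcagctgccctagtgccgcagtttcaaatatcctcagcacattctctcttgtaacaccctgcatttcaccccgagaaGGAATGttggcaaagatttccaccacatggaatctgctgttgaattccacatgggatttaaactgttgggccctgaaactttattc
Pcolce2, chr9:95637378-95637627, + strand: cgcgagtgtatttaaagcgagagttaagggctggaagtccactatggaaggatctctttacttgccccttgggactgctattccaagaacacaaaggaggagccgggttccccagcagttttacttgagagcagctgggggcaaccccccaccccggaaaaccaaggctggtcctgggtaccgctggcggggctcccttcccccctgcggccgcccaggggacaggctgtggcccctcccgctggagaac
Postn, chr3:54360857-54361106, + strand: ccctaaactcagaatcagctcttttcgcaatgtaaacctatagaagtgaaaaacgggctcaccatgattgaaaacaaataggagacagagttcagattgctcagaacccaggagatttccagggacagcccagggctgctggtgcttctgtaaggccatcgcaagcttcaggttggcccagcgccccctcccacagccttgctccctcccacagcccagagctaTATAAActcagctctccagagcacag
Ogn held 1 match to GGAATG and overlapping matches to TATAAA on both strands, and the Postn window shown held 1 match to TATAAA. Postn has another RefSeq start, whose window (chr3:54359017-54359266) held 0 matches to any of the motifs. Pi16 and Pcolce2 held 0 matches to any of these. Sequences were given for 19 of the 34 genes, in 23 windows. Of these 23 windows, 2 held GGAATG (Dpep1 and Ogn), beside 12.6% of all 32851 windows. TGANTCA was found in 0 of the 23, beside 6.75% of all windows, and TATAAA in 5, beside 12.4%. No match to 1 motif overlapped a match to another in the windows of these genes. A match says only that the letters are there.

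Genes around this list were taken from lists of names that hold other activation genes, collagens, signals and transcription factors. Of 20 other activation genes measured, 1 rose and 3 fell, a share of 20% beside the 11.1% of all genes. Their median difference was -0.16, with 13 negative and 7 positive, beside -0.03 over all genes. By array, the median was -0.06, -0.01 and 0.06 in control and -0.19, -0.08 and -0.09 in transgenic hearts. Timp1, an inhibitor of metalloproteinases, had values of 6.58, 6.47 and 6.36 in control and 7.67, 7.56 and 7.85 in transgenic hearts. It rose 2.34-fold (adjusted p = 0.000361). Acta2, the smooth muscle actin that myofibroblasts and vessel walls share, fell by 0.52 (adjusted p = 0.0223), a call lost without transgenic 1 (0.0883) or transgenic 3 (0.0701). Tgfbi, a matrix protein induced by TGF-beta, fell by 0.53 and Runx1, a transcription factor, fell by 0.47. The call on Tgfbi was lost without control 2 (0.0639), transgenic 1 (0.112), transgenic 2 (0.0643) or transgenic 3 (0.0745), and that on Runx1 without control 1 (0.0682), transgenic 1 (0.0824) or transgenic 2 (0.0831).

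Of 8 collagen genes, 0 passed the test. By limma's unadjusted p, 2 genes were under 0.05, Col1a1 and Col5a1, chains of fibrillar collagens, the latter named after its value was seen. That is 25% of the list, beside 25.4% of all genes. Col1a1 had values of 8.91, 8.89 and 8.89 in control and 9.16, 9.15 and 9.29 in transgenic hearts, a difference of 0.30 (adjusted p = 0.0515). It passed with the dimmest genes left out (0.0292), with array weights (0.0385) and with an intensity trend and robust variance (0.0142). Col1a2, the other chain, had 0.19 and Col3a1, type III collagen, 0.16.

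Of 19 genes for signals that act on fibroblasts, 4 fell and 0 rose, beside 5.76% of all genes that fell and 5.35% that rose. Smad7, which restrains TGF-beta signalling, fell by 0.55 (adjusted p = 0.0157), a call lost without control 1 or transgenic 2 (adjusted p up to 0.0598). Pdgfrb, the receptor of mural cells and some fibroblasts, fell by 0.38, the ligand Tgfb3 fell by 0.48 and the cytokine Il11 fell by 0.53, with adjusted p-values from 0.0307 to 0.0392. With 1 array dropped, Pdgfrb stayed past the threshold only for control 2 and otherwise reached adjusted p-values of 0.0618 to 0.113. Tgfb3 stayed past it only for transgenic 3, with 0.0525 to 0.132 otherwise. Il11 stayed past it only for controls 1 and 3, with 0.0506 to 0.117 otherwise. Its values were dim, with means of 4.92 in control and 4.39 in transgenic hearts. The sex term also ended the calls on Pdgfrb (adjusted p = 0.0692) and Il11 (0.077). Tgfb1 had -0.05 and Tgfb2 -0.22, and both missed the threshold. Of 10 transcription factors, 1 rose and 1 fell, 20% beside the 11.1% of all genes. Prrx1, a homeobox factor of mesenchymal cells, had values of 8.58, 8.65 and 8.66 in control and 7.94, 8.16 and 7.92 in transgenic hearts and fell by 0.62 (adjusted p = 0.0047). Tbx20, a T-box factor that heart muscle also expresses, rose by 0.67 (adjusted p = 0.00261).

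Markers of other cell types moved beside the fibroblast genes, and their part in the results was not tested. The counts stand beside 5.76% of all genes that fell and 5.35% that rose. Of 12 endothelial markers, 7 fell and 0 rose (median -0.39), among them Ly6c1 and Pecam1, and their summed signal was 13.65 to 13.76 in control and 13.44 to 13.54 in transgenic hearts on the log2 scale. Of 11 macrophage markers, 7 fell and 0 rose (median -0.57), among them C1qb and Csf1r, with sums of 10.75 to 10.92 and 10.10 to 10.31. Of 10 mural markers, 3 fell, Rgs5 among them, and 1 rose, Cnn1, with sums of 13.62 to 13.64 and 13.24 to 13.36. Pdgfrb is both in this list and among the signals above, so its fall is counted in both. Of 10 epicardial markers, 1 fell, Msln, and 1 rose, Tbx18, with sums of 10.22 to 10.37 and 10.03 to 10.25. The call on Msln was lost in each of the 6 leave-one-out fits (adjusted p from 0.0534 to 0.114). Of 6 Schwann cell markers, 3 fell and 0 rose, with sums of 8.27 to 8.32 and 7.95 to 8.16. By limma 0 of 6 adipocyte and 0 of 8 lymphocyte markers passed, with 1 of each list at an unadjusted p under 0.05. All members' summed signal was 14.78 to 14.87 in control and 14.59 to 14.68 in transgenic hearts, so the groups did not overlap, and the brightest probes, such as Dcn and Vim, weigh most in it. No marker has a true 0 on an array of this kind.

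**Figure D4:**
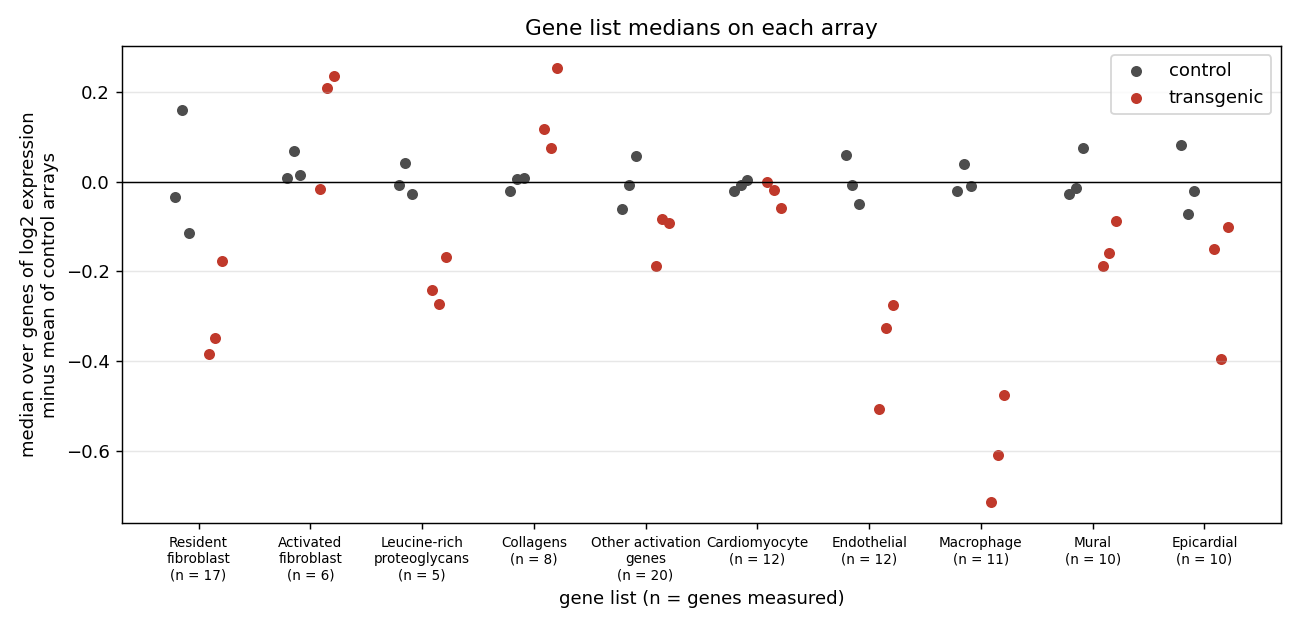
Median over the genes of a list of log2 expression minus the mean of the control arrays, 1 point per array, for fibroblast, collagen and other cell type lists; n is the number of genes measured. Resident, leucine-rich proteoglycan, other activation, endothelial, macrophage, mural and epicardial genes lie lower in all transgenic hearts than in any control heart. Collagens lie higher, activated fibroblast markers overlap between groups, and cardiomyocyte markers lie near 0 in both groups.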

How the data were processed

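RNA of 6 mouse hearts was measured on Affymetrix arrays. The authors deposited 1 log2 value per probe and array, and oligo, RMA and limma are named, without versions, per the submitters' processing notes. Which probes were filtered, and how, is not given in the sources used here. Array medians lay between 5.45 and 5.54, and arrays correlated at 0.982 to 0.989 within and 0.974 to 0.983 between groups. The platform annotation gave 1 gene symbol for 23521 of 41345 probes, several for 1814 and none for 16010. The brightest probe by mean over the 6 arrays stood for each of 22180 genes.

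The comparison used limma 3.58.1 (R 4.3.3), by lmFit followed by eBayes without covariates or a filter on dim probes, with Benjamini-Hochberg adjustment over all genes and a threshold of 0.05. The number of arrays limits the precision. Fold changes are the differences between the group means of the deposited log2 values, put back on the linear scale. The members, their grouping by role and the other lists were chosen with earlier results of these data known. Every member is named, with up to 4 called genes of each related list by smallest p, up to 2 of each cell type list, and some fixed genes. Genes of the related lists without a probe of their own were not analysed here. The fit was tested on simulated arrays. Alternatives left out each array, blocked on replicate number, dropped the dimmest genes, averaged probes, renormalized or centred arrays, used an intensity trend or array weights, and added sex. RefSeq's GRCm38.p6 table held all 34 genes and served for gene order. Protein sequences were not used here.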

Additional observations from a re-analysis of the deposited data

How the results depend on the processing

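Across 14 alternatives, none of the 9 called genes changed sign, and Pi16, Islr, Mfap5, Thy1, Ogn and Pcolce2 passed in all 14. Mfap4, Postn and Cilp lost their calls as given with their values. Of the other 25 genes, 19 passed in no alternative. Leaving out each array in turn gave 6 to 8 called members, with 6 to 7 lower and 0 to 1 higher. The 1 higher was Fap, without control 2, and Postn passed in none of these fits. They called 1171 to 2249 genes in all, beside 2465 with every array. Over all genes 1378 calls were left when control 1 was dropped, and 1217, 1171 and 1553 when transgenic 1, 2 or 3 was. The same fits gave a resident median of -0.37 to -0.24, an activation median of 0.10 to 0.26 and a resident minus activation value of -0.56 to -0.39. This value was negative in all 14 alternatives, which are not separate checks because they reuse the same arrays and lists. The replicate block, averaged probes, centred arrays and the intensity trend left it unchanged at -0.49. The count of risers, 1 in the reported fit, was 0 with the replicate block, with renewed quantile normalization, with centred arrays and with the sex term. Without the dimmest genes the activation median was 0.31 and the resident minus activation value -0.63, with fewer genes in both lists.

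Deviations of same-numbered arrays from their group means correlated at 0.02, -0.13 and 0.01. This shows no sign of pairing by replicate number, but with so few arrays it cannot exclude it. With the replicate block 8 members and 1996 genes were called, Dpep1 passed (adjusted p = 0.0319), and Omd (0.0731), Postn (0.0765), Cilp (0.0731), Tgfb3 (0.072), Pdgfrb (0.0564) and Il11 (0.0614) did not. Rgs5 was lost with probes averaged (0.071). Signal over background was not used here.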

Other observations

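Ogn lies in a run of leucine-rich repeat matrix genes on chromosome 13 in the RefSeq order, beside Omd, Aspn and Ecm2, and these neighbours were looked at after the value of Ogn was seen. Ecm2, a matrix protein that resembles decorin, had values of 8.39, 8.31 and 8.22 in control and 7.47, 7.61 and 7.73 in transgenic hearts. It fell by 0.70 (SE 0.099, limma adjusted p = 0.00322) and passed in all 14 alternatives. Omd, osteomodulin, had 4.84, 4.85 and 4.35 in control and 3.88, 4.17 and 4.26 in transgenic hearts, with a difference of -0.58 (adjusted p = 0.0475). These values are dim, and Omd was among the genes dropped when the dimmest genes were left out. Omd missed the threshold when control 1 (0.141) or control 2 (0.119) was dropped, and likewise each transgenic heart (0.159, 0.111 and 0.0706 for 1, 2 and 3), and with the sex term (0.0723). Aspn, asporin, had -0.31 (95% interval -0.59 to -0.03, adjusted p = 0.154). The genes next to this run, Nol8 and Cenpp, had differences of -0.18 and 0.47 and missed the threshold.

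The like run on chromosome 10 that holds Dcn and Lum also holds Kera, keratocan, and Epyc, epiphycan. Kera had a difference of 0.0037 (95% interval -0.22 to 0.23) and Epyc of 0.0079 (95% interval -0.21 to 0.23), with means under 5 on the log2 scale in both groups. A difference between these runs was not tested.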
